A study of Mus musculus with 13 samples.

Results

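Argonaute (AGO) CLIP maps the RNA that AGO proteins hold in tissue, and 381 of its 18284 positioned peaks in mouse cortex, 2.08%, were annotated by the authors as lying in an exon of no further class. These unclassified exon peaks are described here. They are all rows of the deposited peak table with a position and the region label exon_unclassified, after the 7 such peaks of Malat1 (2753 tags) were left out. Rn45s was to be left out too, but none of its 12 peaks carried the label. The 381 peaks held 7268 CLIP tags, which was 1.84% of all peak tags and 3.49% of the 208059 tags in exonic peaks. The study compared cortex of C57BL6 mice aged 7 to 8 weeks after focal stroke, in which a filament closed the middle cerebral artery for 35 min. The groups were the ipsilateral cortex after 3 h of recovery (5 libraries, replicates 1 to 5), the contralateral cortex of mice with the same operation (4 libraries, replicates 1, 2, 4 and 5), and cortex of sham mice, whose arteries were exposed under anaesthesia without a filament (4 libraries, replicates 1, 2, 3 and 5). Each replicate number stands for a distinct day of surgery and a separate CLIP preparation. The number of mice behind a library is not given in the labels.

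AGO proteins carry microRNAs, and a microRNA guides AGO to transcripts mainly through its seed, bases 2 to 8 from its 5′ end. Many long noncoding RNAs are spliced and polyadenylated like messenger RNAs but are not known to be translated, and several are abundant in neurons. Some hold binding sites for microRNAs, some host microRNA or small nucleolar RNA genes, and Cyrano in mouse carries an unusually long match to miR-7 that triggers decay of that microRNA.

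The table's label gives these exons no class, and the GENCODE M21 annotation puts them in several. An exon of a long noncoding RNA lay under 101 peaks (26.5%), which held 2917 tags (40.1%). The 3'UTR of a protein-coding gene lay under 193 peaks (50.7%), which held 2473 tags (34.0%), and 143 of those 193 had no gene name in the table. A further 24 peaks lay in noncoding transcripts of coding genes, 17 over small RNA genes, 16 in coding sequence and 24 over no exon. The table named 215 of the 381 peaks with 81 gene names and left 166 unnamed (2406 tags). Of the unnamed ones, 162 overlapped an M21 exon, so the group is called unclassified exon peaks here and holds coding as well as noncoding transcripts.

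**Figure D1:**
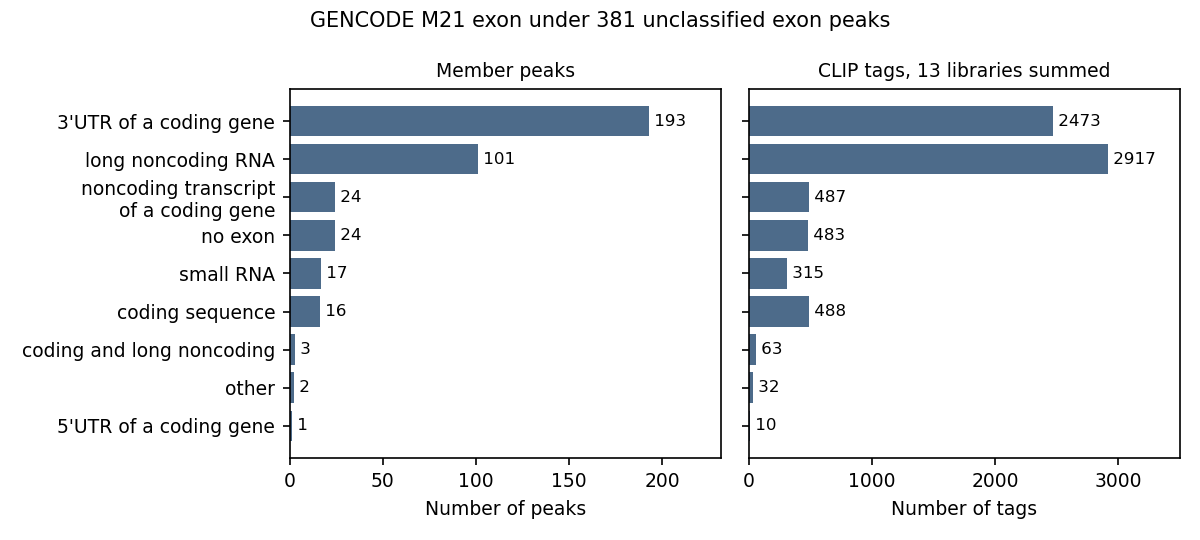
Peaks (left) and tags summed over 13 libraries (right) of the 381 unclassified exon peaks, by the GENCODE M21 exon they overlap; bars are counts. Peaks over 3'UTRs of coding genes are the most numerous (193), while peaks over long noncoding RNAs hold the most tags (2917).

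Sequences from 5 peaks are shown as examples of seed matches in Meg3, Cyrano, Snhg14 and Ank3, whose values are described further on. In the lines that follow, transcript sequence is from GENCODE M21 (mm10), 5′ to 3′, and capitals mark a match to a microRNA seed, either to bases 2 to 8 or to bases 2 to 7 followed by A. The Meg3 peaks lie at chr12:109545768-109545847 (64 tags; match to miR-17) and chr12:109560106-109560185 (50 tags; overlapping matches to miR-181 and miR-221), both on the plus strand. The Cyrano peak lies at chr2:119599948-119600027 on the plus strand (38 tags; matches to miR-7 and miR-218). The last 2 lines are sites of 26 bases: let-7 in Snhg14 (chr7:59975388-59975413, minus strand, peak of 30 tags) and miR-9 in Ank3 (chr10:69990283-69990308, plus strand, peak of 20 tags).
Meg3, miR-17 match: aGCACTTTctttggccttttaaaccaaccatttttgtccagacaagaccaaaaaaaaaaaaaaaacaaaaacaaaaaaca
Meg3, miR-181 and miR-221 matches: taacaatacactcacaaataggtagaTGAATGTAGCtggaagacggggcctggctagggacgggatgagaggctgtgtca
Cyrano, miR-7 and miR-218 matches: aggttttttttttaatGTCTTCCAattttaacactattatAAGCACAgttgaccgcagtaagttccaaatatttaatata
Snhg14, let-7 match: ttcatgaagattttgtaCTACCTCtt
Ank3, miR-9 match: atagtgagaacggtgacCCAAAGAgt

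The microRNAs that these sites match are given as mature sequences from RefSeq (GRCm38.p6), with the seed in capitals. The families have different seeds.
mmu-miR-17-5p: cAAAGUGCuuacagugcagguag
mmu-miR-181a-5p: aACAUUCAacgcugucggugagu
mmu-miR-221-3p: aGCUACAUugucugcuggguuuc
mmu-miR-7a-5p: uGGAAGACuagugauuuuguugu
mmu-miR-218-5p: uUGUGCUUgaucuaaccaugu
mmu-let-7a-5p: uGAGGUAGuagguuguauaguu
mmu-miR-9-5p: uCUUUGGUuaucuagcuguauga

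The libraries were shallow and uneven. Exonic peak tags numbered 2871 to 25138 in ipsilateral, 5936 to 29039 in contralateral and 8834 to 26316 in sham libraries. Tags in the unclassified exon peaks numbered 105 to 772 in ipsilateral, 168 to 1116 in contralateral and 261 to 1023 in sham libraries. Replicate 1 stood apart in every group, with 67.1% of peak tags in intronic or intergenic peaks in ipsilateral, 55.9% in contralateral and 62.9% in sham cortex, against 22.8% to 50.7% elsewhere. Levels are therefore given per 10000 exonic tags. In whole cortex, fewer cells of a type and less RNA per cell cannot be told apart.

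Single peaks were thin. The median unclassified exon peak held 13 tags over all 13 libraries (lowest 3, highest 319), against 11 for all exonic peaks. None had tags in every library, and 247 had tags in at least 7. All were 80 bases long. Neighbours overlapped in 129 cases, leaving 306 separate stretches, so sums over a gene count some bases more than once. The 12 named genes with most tags together held 46.4% of the tags.

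Across the whole group no difference between conditions was detected. The unclassified exon peaks took 3.65%, 2.81%, 2.99%, 3.55% and 3.66% of exonic tags in ipsilateral replicates 1 to 5. Their share was 3.84%, 4.10%, 2.83% and 4.55% in contralateral replicates 1, 2, 4 and 5, and 3.89%, 3.40%, 2.95% and 3.27% in sham replicates 1, 2, 3 and 5. The 3 groups overlapped, with means of 3.33% ± 0.401 in ipsilateral (SD, n = 5), 3.83% ± 0.727 in contralateral (n = 4) and 3.38% ± 0.388 in sham cortex (n = 4). For ipsilateral 5, the library with the fewest tags, the exact (Clopper-Pearson) 95% interval of the share was 3.00% to 4.41%, which covers counting error only.

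The exact two-sided permutation test over libraries gave p = 0.881 for ipsilateral against sham cortex (difference -0.05 percentage points), p = 0.198 for ipsilateral against contralateral (-0.50) and p = 0.314 for contralateral against sham (0.45). Adjusted over the 9 share tests made, these were 0.991, 0.524 and 0.524. The smallest p these designs allow is 0.0079 for 5 against 4 libraries and 0.0286 for 4 against 4. Contralateral replicate 4, with the lowest share of its group, mattered most: without it the ipsilateral to contralateral difference was -0.83 (exact permutation p = 0.0357).

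**Figure D2:**
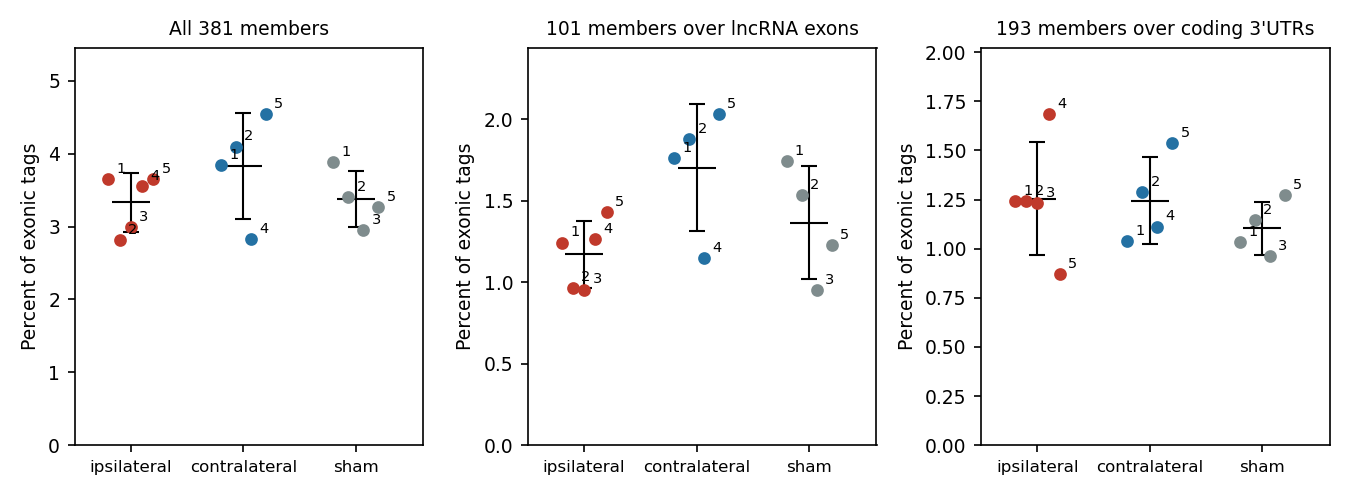
Share of exonic tags (percent, from 0) taken by all 381 unclassified exon peaks, by the 101 over long noncoding RNA exons and by the 193 over coding 3'UTRs. Points are libraries with their replicate number, horizontal bars group means and vertical bars 1 SD; ipsilateral means were 3.33%, 1.17% and 1.25%, and the groups overlap in each panel.

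Members over long noncoding RNAs and over coding 3'UTRs were then set apart. Members over long noncoding RNAs averaged 1.17% ± 0.205 of exonic tags in ipsilateral (SD, n = 5), 1.70% ± 0.388 in contralateral (n = 4) and 1.36% ± 0.348 in sham cortex (n = 4). The ipsilateral libraries lay between 0.954% and 1.43%, the contralateral ones between 1.15% and 2.03%, and the sham ones between 0.951% and 1.74%. The ipsilateral to contralateral difference of -0.53 points had an exact permutation p of 0.0556, or 0.500 after Benjamini-Hochberg adjustment over the 9 tests of this family (3 shares, 3 comparisons). It depended on single libraries and on 1 gene. Without contralateral replicate 4 the difference was -0.72 (exact permutation p = 0.0179), and without Meg3 it was -0.01 (exact permutation p = 0.881). Members over coding 3'UTRs averaged 1.25% ± 0.289 in ipsilateral (SD, n = 5), 1.24% ± 0.222 in contralateral (n = 4) and 1.10% ± 0.136 in sham cortex (n = 4), with exact permutation p from 0.343 to 0.992 over the 3 comparisons.

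Meg3, a maternally expressed long noncoding RNA of the imprinted Dlk1-Dio3 region on chromosome 12 that is abundant in neurons, held more tags than any other named gene in the group, with 1372 in 23 peaks. Its peaks lay in 14 separate stretches covering 1579 bases between chr12:109545768-109545847 and chr12:109561650-109561729. The tags were spread rather evenly, with 34 to 88 per peak and a median of 56. Of the 10 unclassified exon peaks with most tags, 7 were in Meg3. The best covered, at chr12:109560352-109560431 (88 tags), held no seed match of the families searched.
Meg3, most tags: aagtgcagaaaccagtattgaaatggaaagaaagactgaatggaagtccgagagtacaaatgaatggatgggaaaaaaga

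Meg3 had 50.1, 28.2, 31.4, 30.1 and 55.7 tags per 10000 exonic tags in ipsilateral replicates 1 to 5. It had 109, 108, 15.2 and 132 in contralateral replicates 1, 2, 4 and 5, and 102, 62.9, 32.8 and 40.4 in sham replicates 1, 2, 3 and 5. Contralateral replicates 1, 2 and 5 and sham replicate 1 were the 4 highest libraries, and contralateral replicate 4 (9 tags) the lowest of all 13, so the groups overlapped. Group means were 39.1 ± 12.8 in ipsilateral (SD, n = 5), 90.9 ± 51.7 in contralateral (n = 4) and 59.5 ± 31.0 in sham cortex (n = 4).

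In edgeR's quasi-likelihood test over gene sums the log2 fold change of Meg3 was -1.22 (SE 0.48) for ipsilateral against contralateral cortex, with a Benjamini-Hochberg adjusted p of 0.308, and it did not pass. Against sham cortex it was -0.68 (SE 0.48, adjusted p = 0.533), and for contralateral against sham cortex 0.54 (SE 0.50, adjusted p = 0.997). The 13 peaks of Meg3 that the table labels intronic (616 tags) had 18.4, 17.5, 19.2, 8.03 and 17.4 tags per 10000 exonic tags in ipsilateral replicates 1 to 5. They had 41.7, 51.9, 1.68 and 22 in contralateral replicates 1, 2, 4 and 5, and 46, 39, 36.2 and 21 in sham replicates 1, 2, 3 and 5. In these peaks too, contralateral replicate 4 was the lowest library.

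**Figure D3:**
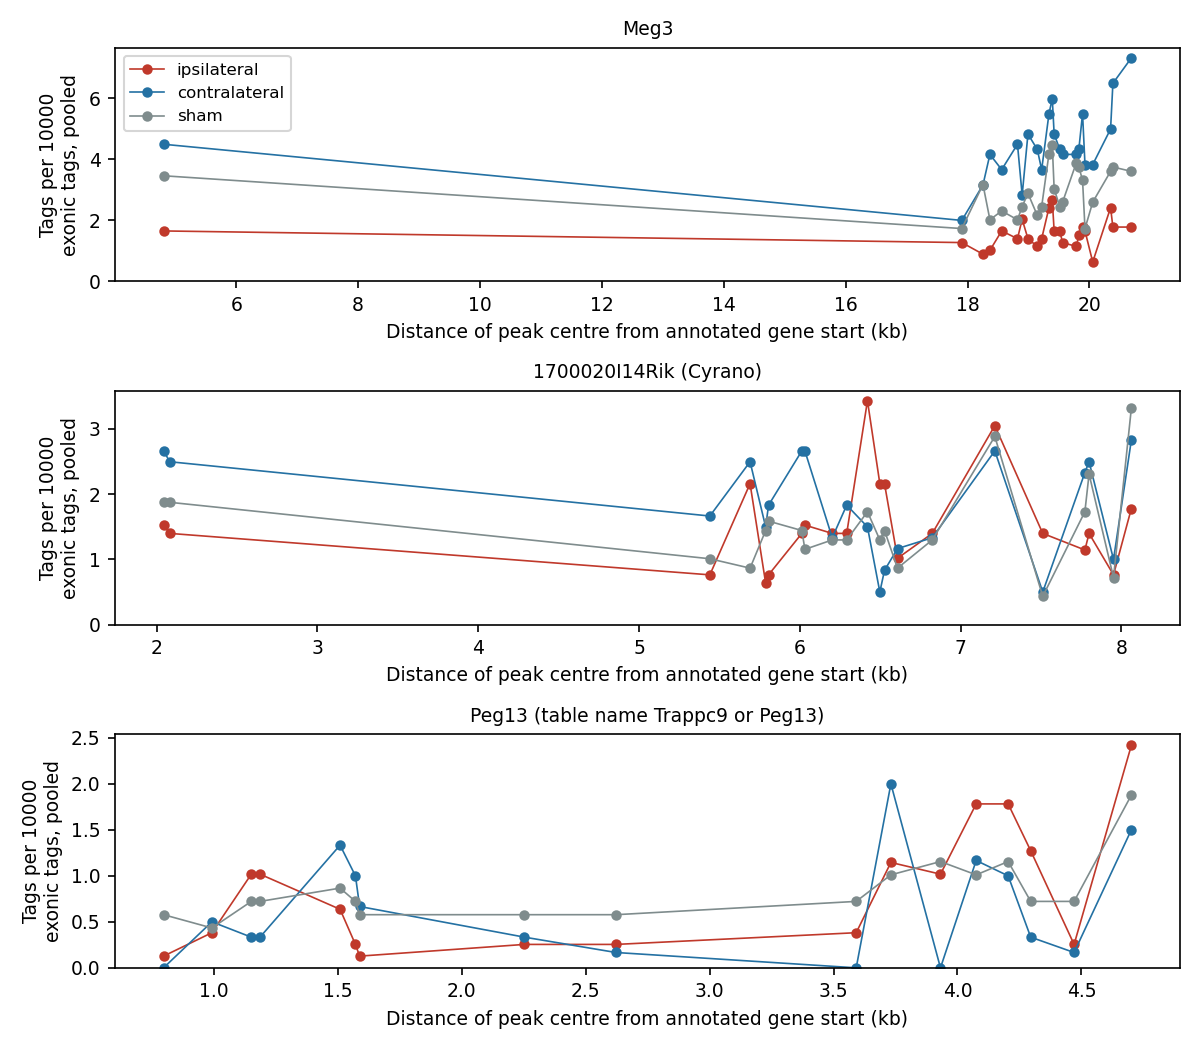
Tags per peak along Meg3, 1700020I14Rik (Cyrano) and Peg13, per 10000 exonic tags of each group pooled, against the distance of the peak centre from the annotated gene start (kb). Lines join neighbouring peaks of a group and carry no error. All but 1 of the 23 Meg3 peaks lie more than 17 kb from the start, where the pooled ipsilateral line lies below the contralateral one. The peaks share the same libraries and are not independent. Pooling hides contralateral replicate 4, whose Meg3 sum (15.2) lies below every ipsilateral library (lowest 28.2).

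Cyrano, named 1700020I14Rik in the table and Oip5os1 in RefSeq, is a conserved long noncoding RNA on chromosome 2. The table gave its name to 11 peaks with 373 tags, and 10 further peaks without a name lay over its exons, making 21 peaks with 708 tags in 15 stretches. Tags per peak ran from 17 to 60 with a median of 32. By M21 names it had 39.2, 32.6, 26.9, 30.1 and 38.3 tags per 10000 exonic tags in ipsilateral replicates 1 to 5. It had 33.1, 43.8, 55.6 and 34.0 in contralateral replicates 1, 2, 4 and 5, and 27.4, 31.1, 21.5 and 43.5 in sham replicates 1, 2, 3 and 5. The 3 groups overlapped, at 33.4 ± 5.28 in ipsilateral (SD, n = 5), 41.6 ± 10.5 in contralateral (n = 4) and 30.9 ± 9.32 in sham cortex (n = 4). The named peaks alone gave a log2 fold change of 0.02 (SE 0.31) against sham cortex and of -0.47 (SE 0.31) against contralateral cortex, with edgeR adjusted p of 0.994 and 0.490. The first of these turned to -0.0044 with total counts in place of TMM factors and to -0.26 outside replicate 1, with no call.

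Cyrano's transcript held 2 seed matches to miR-7, and they differed in how the rest of the microRNA could pair and in where the peaks lay. The match at chr2:119599964-119599970 lay inside a peak of 38 tags, and 4 of 15 target bases upstream of it were complementary to bases 9 to 23 of miR-7a when up to 4 unpaired target bases were allowed in between. For the match at chr2:119602154-119602160 the count was 14 of 15. No peak of the group covered that match. The nearest, at chr2:119602056-119602135 with 42 tags, ended 19 bases before it. The stretch of 25 bases around each match, with the seed match in capitals, is shown to compare their pairing.
Cyrano, match inside a peak: caggttttttttttaatGTCTTCCa
Cyrano, match between peaks: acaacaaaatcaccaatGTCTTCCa

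Peaks over Peg13, an imprinted long noncoding RNA that lies inside Trappc9, were mostly given the name of the host gene, a trafficking complex subunit. Trappc9 peaks (13, with 234 tags) and Peg13 peaks (4, with 40 tags) all overlapped the Peg13 exon on chromosome 15. Under the table name Trappc9 they had 7.56, 15.9, 15.1, 10.0 and 6.97 tags per 10000 exonic tags in ipsilateral replicates 1 to 5, 7.58, 10.6, 18.5 and 6.59 in contralateral replicates 1, 2, 4 and 5, and 9.88, 11.2, 7.92 and 14.7 in sham replicates 1, 2, 3 and 5. The 3 groups covered the same range.

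Snhg14, a very long antisense and small nucleolar RNA host transcript of the Prader-Willi and Angelman syndrome region, carried the name D7Ertd715e in 16 peaks with 195 tags. It had 8.98, 8.35, 4.08, 16.1 and 17.4 tags per 10000 exonic tags in ipsilateral replicates 1 to 5. It had 7.23, 6.88, 6.74 and 8.79 in contralateral replicates 1, 2, 4 and 5, and 9.12, 16.5, 15.8 and 13.1 in sham replicates 1, 2, 3 and 5. Every contralateral library lay below every sham library, by a small margin at the nearest pair. Of the 443 gene sums tested, 1.13% lay lower and 1.58% higher in contralateral than in sham cortex without overlap. The log2 fold change was -0.90 (SE 0.37) and did not pass edgeR's test (adjusted p = 0.997). A further Snhg14 peak without a name added 4 tags, and with it contralateral replicate 4 had 10.1 tags per 10000, above the 9.12 of sham replicate 1.

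Of the fixed lists of noncoding RNAs, few genes had unclassified exon peaks, and the peak counts here are of those peaks only. By table name, 7 of the brain long noncoding RNA list had tags in exonic peaks of any label (2234 tags). Of the small structural RNA list 2 did (156 tags). The Dlk1-Dio3 list (5 genes) was represented by Meg3 and by Rian, which had 1 peak of 20 tags. From the brain long noncoding RNA list (30 names) Cyrano, Peg13, Tug1 and Miat had peaks, 42 with 1075 tags together. Of 19 small nucleolar RNA hosts, Gas5, Snhg12, Snhg14, Meg3 and Rian did. None of the 4 X inactivation RNAs had a tag in this group, and of 23 small structural RNAs only Rnu11, a spliceosomal RNA, had a peak (15 tags). Of 14 microRNA hosts, A330023F24Rik had 2 peaks with 33 tags. Unclassified exon sums from these lists were deep enough to be tested for Meg3, Cyrano, Snhg14 (as D7Ertd715e) and Peg13 (as Trappc9). None passed.

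Among named peaks in coding genes, those of Ank3 separated the groups most clearly. Ank3 encodes ankyrin-G, the scaffold of the axon initial segment and the nodes of Ranvier. Its 12 peaks (122 tags) lay within chr10:69989962-69992450 in an exon that M21 annotates as coding. Ank3 had 4.25, 2.78, 2.45, 4.01 and 3.48 tags per 10000 exonic tags in ipsilateral replicates 1 to 5. It had 5.85, 10.6, 13.5 and 14.3 in contralateral replicates 1, 2, 4 and 5, and 6.84, 5.96, 4.53 and 5.77 in sham replicates 1, 2, 3 and 5. Every ipsilateral library lay below every contralateral and every sham library, against sham by a small margin at the nearest pair (4.25 and 4.53). In ipsilateral replicates 4 and 5 the values lay below the level of 3 tags (6.02 and 10.4).

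Ank3 was chosen for its tag total, and these values come from 1 to 18 tags per library. Its log2 fold change was -1.60 (SE 0.39) for ipsilateral against contralateral cortex, with an edgeR adjusted p of 0.0755 that missed the threshold of 0.05. Over the alternatives that leave out 1 library its adjusted p ran from 0.0225, without ipsilateral replicate 1, to 0.310. Outside replicate 1 it was 0.0377, with a fold change of -2.09, and in the fit with the surgery day as a block 0.177. DESeq2 gave a log2 fold change of -1.61, with an unadjusted p of 0.00103 and no adjusted p. Against sham cortex the fold change was -0.86 (SE 0.40, edgeR adjusted p = 0.331), and for contralateral against sham cortex 0.74 (SE 0.37, adjusted p = 0.997). Of the 443 gene sums tested, 2.93% lay lower and 1.13% higher in ipsilateral than in contralateral cortex without overlap. Against sham cortex 2.26% lay lower and 0.903% higher without overlap. Ank3 was the only unclassified exon gene in any of these sets.

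Other parts of Ank3 did not separate all ipsilateral libraries from the rest, although the peaks labelled CDS leaned the same way. Its 17 peaks labelled 3'UTR (369 tags) had 11.1 to 34.8 tags per 10000 exonic tags in ipsilateral, 10.1 to 20.3 in contralateral and 7.28 to 31.2 in sham libraries. Its 17 peaks labelled CDS (213 tags) had 6.02 to 10.4 in ipsilateral, 10.0 to 13.5 in contralateral and 8.92 to 11.4 in sham libraries. The difference between these parts was not tested.

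For neuron, oligodendrocyte lineage and astrocyte markers the lowest ipsilateral sum lay below every library of the other groups, but the ranges overlapped. Each lowest sum is a single library. For neuron and astrocyte markers it is ipsilateral replicate 1, with 21157 exonic tags and 67.1% of peak tags in intronic or intergenic peaks. For oligodendrocyte lineage markers it is ipsilateral replicate 5, with 2871 exonic tags. Exonic tags of 8 neuron markers summed to 151 to 309 per 10000 in ipsilateral, 267 to 317 in contralateral and 256 to 305 in sham libraries, with Rbfox3 and Tubb3 at 0. Those of 9 oligodendrocyte lineage markers summed to 13.9 to 44.2 in ipsilateral, 42.5 to 69.2 in contralateral and 40.7 to 56.9 in sham libraries, with Mog, Mag, Olig1 and Olig2 at 0. Those of 8 astrocyte markers summed to 205 to 349 in ipsilateral, 305 to 442 in contralateral and 267 to 337 in sham libraries, with Gfap and Aldh1l1 at 0. Their part in the values of Meg3 and Ank3 was not tested. Microglial and myeloid (1 of 8 genes with tags), vascular (2 of 7) and blood markers (1 of 5) summed to at most 6.02 per 10000 in any library. Mobp, a myelin protein gene and the only marker with unclassified exon peaks (4, with 93 tags), averaged 3.05 ± 2.19 in ipsilateral (SD, n = 5), 5.29 ± 4.49 in contralateral (n = 4) and 4.64 ± 1.76 tags per 10000 in sham cortex (n = 4).

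**Figure D4:**
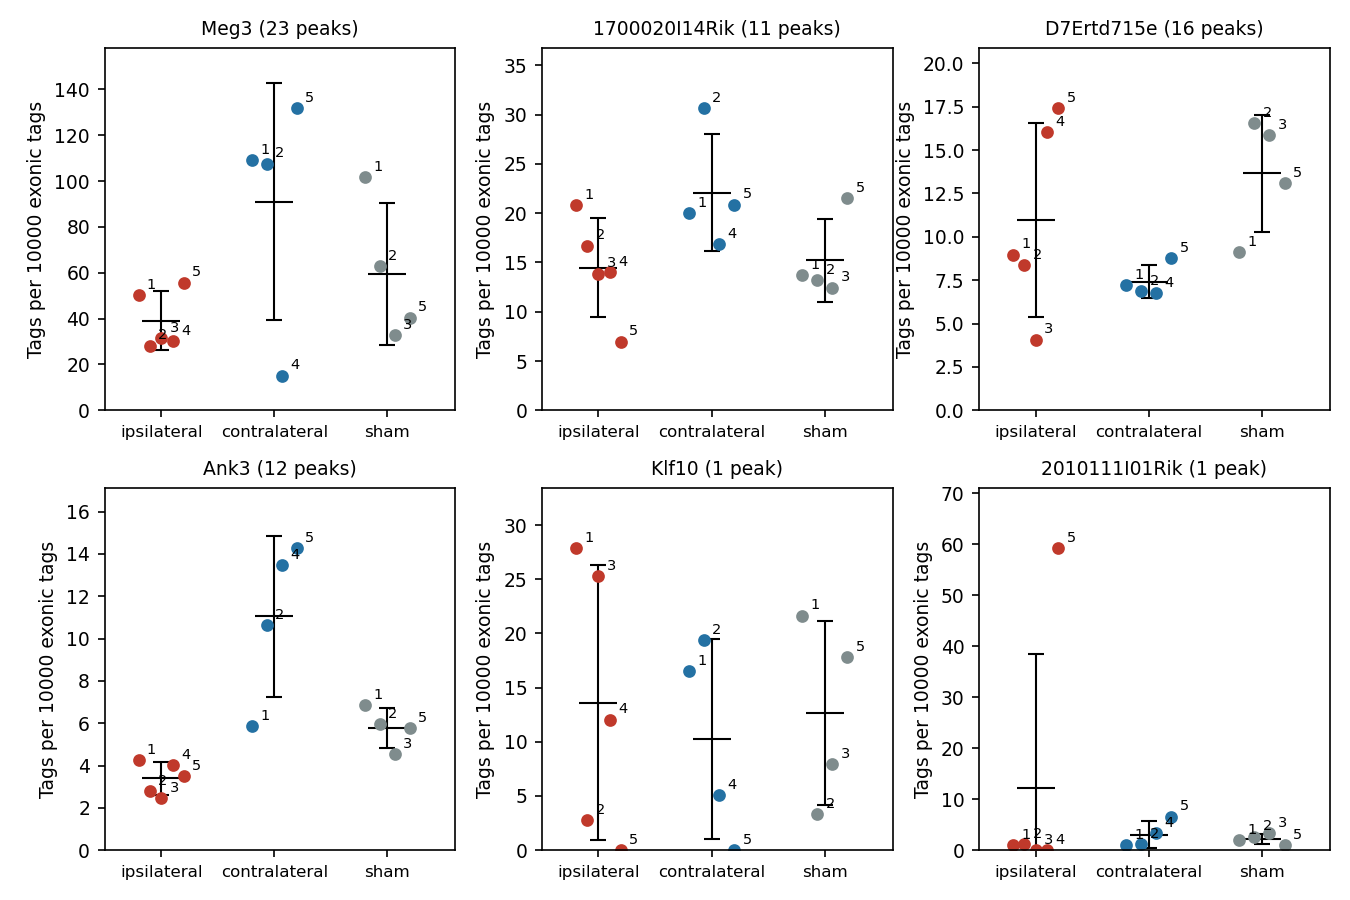
Tags per 10000 exonic tags (axes from 0) in the unclassified exon peaks of 6 genes by table name. Points are libraries with their replicate number, horizontal bars means and vertical bars 1 SD; for Ank3 the 5 ipsilateral libraries (2.45 to 4.25) lie below the other 8, and for 2010111I01Rik, the name given to the Mir23b peak, ipsilateral replicate 5 stands alone at 59.2.

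The single peak with most tags in the group was that of Klf10, a zinc finger transcription factor induced by TGF-beta, at chr15:38300334-38300413 on the minus strand. It held 319 tags and was the gene's only peak in the table. It lies in an exon that M21 annotates as coding. Its sequence is shown because it contains a run of 33 A, marked in capitals.
Klf10: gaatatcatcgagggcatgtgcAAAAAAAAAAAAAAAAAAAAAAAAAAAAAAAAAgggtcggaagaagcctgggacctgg

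Klf10 tags numbered 59, 7, 62, 6 and 0 in ipsilateral replicates 1 to 5, 48, 31, 3 and 0 in contralateral replicates 1, 2, 4 and 5, and 57, 5, 7 and 34 in sham replicates 1, 2, 3 and 5. Libraries of each group lay at both ends of this range. Its log2 fold changes ran from -0.24 to 0.48 in the 3 comparisons (edgeR adjusted p from 0.770 to 0.997), and all 3 changed sign when 1 library was left out. Long runs of A were not common in the group. Of 347 members with at least 50 bases of transcript sequence, 13 (3.75%) held a run of 10 or more A. So did 317 of 7633 3'UTR peaks (4.15%) and 6 of 3861 CDS peaks (0.155%). A run of 20 or more A lay in 3 of 347 members, 33 of 7633 3'UTR peaks and 1 of 3861 CDS peaks.

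Other coding genes were represented by noncoding transcripts, by 3'UTRs or by peaks over no exon. Atp2a2, the calcium pump of the endoplasmic reticulum, had 3 peaks in a noncoding transcript (151 tags). It averaged 8.74 ± 4.21 tags per 10000 exonic tags in ipsilateral (SD, n = 5), 6.10 ± 3.40 in contralateral (n = 4) and 5.54 ± 1.00 in sham cortex (n = 4), with a log2 fold change of 0.69 (SE 0.41) against sham cortex (edgeR adjusted p = 0.441). Copg2, a coat protein of Golgi vesicles, had 9 peaks (180 tags) over no M21 exon, at 7.14 ± 2.32 in ipsilateral (SD, n = 5), 10.4 ± 7.13 in contralateral (n = 4) and 8.58 ± 1.50 in sham cortex (n = 4). Sf3b2, a splicing factor, had 1 peak over no exon, with 43 tags in ipsilateral, 21 in contralateral and 35 in sham libraries. N28178 (10 peaks, 124 tags) lay over the 3'UTR of Phf24, and its values were 5.28 ± 2.17 in ipsilateral (SD, n = 5), 8.27 ± 1.52 in contralateral (n = 4) and 7.27 ± 3.59 in sham cortex (n = 4). Mib1, a ubiquitin ligase of Notch signalling, had 4 peaks, with 41 tags in ipsilateral, 29 in contralateral and 37 in sham libraries, at 5.29 ± 1.37 in ipsilateral (SD, n = 5), 5.71 ± 4.19 in contralateral (n = 4) and 4.94 ± 1.95 in sham cortex (n = 4). Farp1, a guanine nucleotide exchange factor of neurons, had 2 peaks with 65 tags and log2 fold changes of 0.07 against sham and 1.23 against contralateral cortex (edgeR adjusted p of 0.994 and 0.582). None of these genes separated the groups.

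Peaks without a gene name were mostly 3'UTRs of coding genes, and the 4 coding genes with most tags among them are named here after their totals were seen. Sorl1, a sorting receptor of neurons, had 22 peaks with 329 tags. Cpeb4, a regulator of cytoplasmic polyadenylation, had 24 peaks with 309 tags. Foxo3, a stress-responsive transcription factor, had 19 peaks with 292 tags. Lnpep, a membrane aminopeptidase, had 18 peaks with 264 tags. Sorl1 averaged 19.5 ± 11 tags per 10000 exonic tags in ipsilateral (SD, n = 5), 16 ± 5.47 in contralateral (n = 4) and 10.0 ± 4.88 in sham cortex (n = 4), and with M21 names in the fit its log2 fold change against sham cortex was 0.96 (SE 0.40, edgeR adjusted p = 0.339). Cpeb4 averaged 20.3 ± 10.2 in ipsilateral (SD, n = 5), 11.1 ± 3.88 in contralateral (n = 4) and 13 ± 4.97 in sham cortex (n = 4), with adjusted p from 0.384 to 1.000 over the 3 comparisons.

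Small RNA genes, named here after their values were seen, lay under 17 members with 315 tags. They were precursors of Mir23b (49 tags), Mir101a (29), Mir29b-2 (23), Mir26b (19), Mir181a-1 (12) and Mir137 (10), small nucleolar RNAs of Gas5, Snhg12 and Rpl13a, the small nuclear RNAs Rnu11 and Gm22710, and a miRNA gene in Ddx5. The Mir23b peak, which the table names 2010111I01Rik, had 2, 3, 0, 0 and 17 tags in ipsilateral replicates 1 to 5, 3, 2, 2 and 6 in contralateral replicates 1, 2, 4 and 5, and 5, 4, 3 and 2 in sham replicates 1, 2, 3 and 5. Ipsilateral replicate 5 was high alone and was the library with the fewest tags. In the deposited miRNA table mature miR-23b-3p had 12.9, 12.7, 12.1, 21.6 and 46.7 tags per 10000 miRNA tags in ipsilateral replicates 1 to 5, 23, 8.38, 16 and 6.83 in contralateral replicates 1, 2, 4 and 5, and 15.9, 15.1, 10.0 and 14.7 in sham replicates 1, 2, 3 and 5. Ipsilateral replicate 5 was the highest there too, with 18 tags, but this was not particular to miR-23b-3p. That library was also the highest for miR-29b-3p (51.9), miR-101a-3p (31.2) and miR-137-3p (18.2). It was not the highest for miR-26b-5p and miR-181a-5p (7.79 each). It had the fewest miRNA tags of all libraries, 3851.

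Calls over gene sums and single peaks were as follows. Of 81 gene names in the group, 10 passed edgeR's filter and were tested among 443 gene sums. No unclassified exon gene passed an adjusted p of 0.05 in any of the 3 comparisons in edgeR, nor in DESeq2. DESeq2 gave no adjusted p for Ank3, Atp2a2, Copg2, Farp1 and N28178 in either ipsilateral comparison. This stands against a background of 0.226%, 0.0% and 0.0% of all gene sums called by edgeR for ipsilateral against sham, ipsilateral against contralateral and contralateral against sham cortex. At an unadjusted edgeR p under 0.05 there were 1 (Ank3), 2 (Ank3 and Meg3) and 1 (D7Ertd715e) of the 10 tested genes, against 64, 64 and 9 of all 443 sums. Of the 10 tested genes 5 had a positive and 5 a negative fold change against sham cortex (median log2 fold change -0.08, against -0.04 over all 443 sums) and likewise 5 and 5 against contralateral cortex (median -0.07, against 0.01). For contralateral against sham cortex 6 were positive and 4 negative (median 0.15, against -0.04). Only 1 of the 381 single peaks, that of Klf10, was deep enough to be tested among 238, and it was not called; 0.0% of peaks were called in each comparison. Those filters keep only the best covered sums, so smaller changes, and changes in the other members, were not detectable at this depth.

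Seed matches were found in a smaller share of the unclassified exon peaks than of peaks labelled 3'UTR or CDS. Matches to any of 23 microRNA families of brain were found in 81 of 347 members read (23.3%), against 2322 of 7633 3'UTR peaks (30.4%) and 1406 of 3861 CDS peaks (36.4%). Members over coding 3'UTRs held one in 54 of 193 cases (28.0%), against 1025 of 4457 other windows of the same transcripts (23%). Those other windows were taken along the whole transcript, coding sequence and 5'UTR included. Members over long noncoding RNAs held one in 16 of 96 cases (16.7%), against 184 of 808 other windows of the same RNAs (22.8%). The GC content was 39.5% in the long noncoding RNA members and 45.6% in their other windows, and 38.9% and 47.5% in the 3'UTR members and the other windows of their transcripts. The families miR-124 and miR-23 and peaks labelled intronic were not searched. These shares are descriptions without a test, since neighbouring windows share bases. The families matched most often were miR-30 (9 members), miR-9 and miR-181 (8 each), and miR-101 and miR-221 (7 each). Every one of the 23 families matched at least 1 member. Peaks over microRNA precursors were counted too, and in the Mir101a precursor the miR-101 match lies within the mature miR-101a sequence itself.

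**Figure D5:**
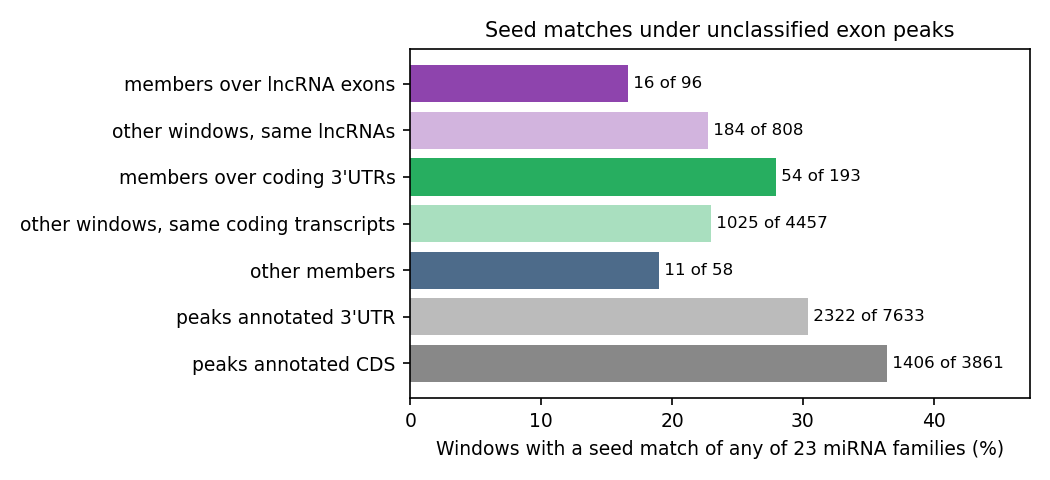
Share of windows (percent) that hold a seed match of any of 23 microRNA families, with the number of windows beside each bar; bars are counts over windows and carry no error. Members over long noncoding RNAs are lowest (16.7%) and peaks annotated as CDS highest (36.4%).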

How the data were processed

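The authors deposited 2 tables of counts, whole numbers of tags per AGO peak and per mature miRNA in 13 libraries, not normalized. Per the submitters' processing notes, the build was mm10 and the aligner Novoalign. Which program called peaks, and whether PCR duplicates were collapsed, is unknown here, so tags may not be independent molecules. Peak starts were read as counting from 0. Each member was matched to GENCODE M21 exons by overlap, and strand was taken from the gene, since the letter in the peak names matched the exon strand in 48.0% of 5651 3'UTR peaks.

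Tags were summed per gene name and region class (4405 sums, of which 443 passed filterByExpr) and tested with edgeR 4.0.16 (R 4.3.3): quasi-likelihood, TMM factors, all 13 libraries in 1 fit, two-sided, Benjamini-Hochberg adjusted p under 0.05. Standard errors were derived from the fold change and its p. DESeq2 1.42.0 was an alternative. Single peaks were tested likewise. Shares of exonic tags were compared with exact permutation tests. Genes were named by a rule: the 12 with most tags, the 5 highest and 5 lowest fold changes per comparison among those tested, the 10 peaks with most tags, and genes of fixed lists; others are said to be chosen after their values were seen. The members, lists and rules were chosen with earlier results of these data known. The edgeR test was checked on simulated counts whose spread was near that of the gene sums (coefficient of variation 0.39). Single peaks spread far more (0.90), so the check does not cover them. The permutation test was checked on fixed numbers with a known answer. Same-numbered libraries share a day of surgery, per the labels; their deviations from group means correlated between -0.01 and 0.55. The p-values measure the spread between libraries only.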

Additional observations from a re-analysis of the deposited data

Results flagged for a closer look

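Among 48 sets of values examined for 1 library far from the rest (shares and named genes, in each group), 2 had a library that stood apart, and chance gives about 1 in 20. In sham cortex, the peaks named 1700020I14Rik (Cyrano) had 21.5 tags per 10000 exonic tags in replicate 5, against 12.5 to 13.7 in the other 3 sham libraries. In ipsilateral cortex, members over small RNA genes had 97.5 tags per 10000 exonic tags in replicate 5, against 4.08 to 17 in the other 4, and 17 of the 28 tags behind that value were in the Mir23b peak.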

How the results depend on the processing

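The share of exonic tags in ipsilateral against sham cortex (main difference -0.05 points) was positive with all peak tags as denominator (0.23), with 1 peak per overlapping stretch (0.0414), without Meg3 (0.158) and outside replicate 1 (0.0451), and ran from -0.19 to 0.12 with 1 library left out. Ipsilateral against contralateral it was 0.0208 without Meg3 and -0.83 to -0.26 with 1 library left out (0.21 to 0.78 for contralateral against sham). For members over long noncoding RNAs, the difference from sham cortex was 0.0105 without Meg3 (-0.33 to -0.07 with 1 library left out), and that from contralateral cortex -0.72 to -0.42. For members over coding 3'UTRs, ipsilateral against contralateral was -0.0258 with all peak tags as denominator, -0.0039 for peaks with at least 10 tags, -0.006 with 1 peak per stretch and -0.0554 outside replicate 1, and -0.10 to 0.11 with 1 library left out. The causes were not tested. Choices on stretches, Meg3, classes, M21 names and replicate 1 were added after the data were seen.

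The count of unclassified exon genes called for ipsilateral against contralateral cortex was 1 (Ank3) outside replicate 1 and 0 to 1 with 1 library left out; all others were 0. Log2 fold changes of uncalled genes against sham cortex changed sign for 1700020I14Rik (-0.0044 with total counts, -0.0777 without a filter, -0.26 outside replicate 1; -0.17 to 0.19 with 1 library left out), Farp1 (-0.0224 without a filter; -0.19 to 0.83) and Trappc9 (-0.0135 without a filter; -0.0874 to 0.25). With 1 library left out those of Klf10 ran from -0.21 to 0.70 against sham and from -0.0257 to 0.88 against contralateral cortex, and Copg2 from -0.56 to 0.0677 against contralateral. For contralateral against sham they ran from -0.65 to 0.20 (Klf10), -0.25 to 0.38 (Copg2), -0.0876 to 0.36 (Atp2a2) and -0.0697 to 0.44 (N28178). With the surgery day as a replicate block, Farp1 was -0.35 and Trappc9 -0.0366 against sham cortex, and the block changed no call. The paired share difference of ipsilateral cortex was -0.10 points from sham and -0.41 from contralateral cortex (exact sign-flip p = 0.75 and 0.375). For members over long noncoding RNAs it was -0.48 from contralateral cortex (exact sign-flip p = 0.25). With 4 pairs the smallest possible p is 0.125. Against contralateral cortex replicate 4 alone was positive (0.72 and 0.12). Depth limits single peaks most: 1 peak could be tested.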
